A study of Mus musculus with 12 samples.

Results

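Migratory type 1 conventional dendritic cells (cDC1) of the skin-draining lymph nodes were compared between mice with and without an Xcr1-Cre allele, on 6 of the 12 arrays of the series. The members are the arrays whose titles name this tissue: 3 labelled Cre, from Xcr1 Cre/+ mice, and 3 labelled control, from Xcr1+/+ mice. All of these mice were naive, on the C57BL/6 background and homozygous for a floxed Cd40 gene, so Cre is the labelled difference between the groups and was meant to delete Cd40 in cDC1. The labels give no age, and do not say whether animals were pooled. Cells were sorted as B220-negative, MHC class II high, CD11c intermediate, XCR1-positive and Sirpa-negative, and labelled cDNA was made from picogram to nanogram amounts of total RNA. The other 6 arrays hold splenic cDC1 of the same genotypes and serve here only for comparison. Cre is carried by the Xcr1 locus and so acts in cells that have expressed that chemokine receptor.

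CD40 is a receptor of the TNF receptor family through which helper T cells that carry CD40 ligand license dendritic cells. Its TRAF adaptors, the cIAP ubiquitin ligases and the kinase NIK pass the signal to both branches of NF-kB, which raises costimulatory ligands and cytokines of the IL-12 family. Migratory cDC1 have matured in the skin, moved to the node through CCR7, and there present captured antigen to CD8 T cells. Type I interferon drives a separate set of antiviral genes whose promoters carry the interferon-stimulated response element.

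Some genes of that interferon set are described below, none of them called between the groups, and the response element can be read in some of their promoters. Promoters from 250 bases before to 50 bases after the annotated start (RefSeq, mouse build GRCm38.p6) were searched for GAAANNGAAA on both strands, so that TTTCNNTTTC on the printed strand is the same motif. The stretches below run 5′ to 3′ on the gene's own strand, with the motif in capitals, and are shown because these genes were lower on the 3 arrays labelled Cre than on any control array. Ifit1 lies on the plus strand at chr19:34640755-34640843, Ddx60 on the plus strand at chr8:61928004-61928086 and Ifi213 on the minus strand at chr1:173599306-173599375.
Ifit1: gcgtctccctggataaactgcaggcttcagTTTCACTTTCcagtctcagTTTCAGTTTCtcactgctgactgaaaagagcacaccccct
Ddx60: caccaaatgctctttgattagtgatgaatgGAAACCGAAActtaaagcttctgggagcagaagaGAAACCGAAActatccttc
Ifi213: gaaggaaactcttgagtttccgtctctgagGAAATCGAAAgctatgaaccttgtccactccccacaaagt

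In Ifit1 the motifs began 104 and 85 bases before the start, in Ddx60 53 and 19 bases before it, and in Ifi213 73 bases before it. Of 37 interferon-response genes with a promoter in the table and signal above background, 21 (56.8%) held the motif, against 507 of 13902 genes above background (3.65%) and 1079 of all 27025 genes with a promoter (3.99%). The motif did not separate the interferon genes by their difference between groups: it was present in 8 of 15 members that were lower in every pair (53.3%) and in 13 of 22 others (59.1%). Irf7, Isg20 and Phf11d, which also differed without overlap, did not hold these letters in the window. A match is a description of the sequence, not a measured binding site.

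The measured values are RMA intensities, 1 per probe set and array, and 19938 genes were tested. A gene was taken as above background when it exceeded the highest mean of 3 Y-linked genes, an intensity of 19.6. On the 6 lymph node arrays 17652 genes (88.5%) did so throughout, and counts of pairs and overlaps below use those. Median intensity was 67.2 to 74.4 on the control arrays and 69.1 to 73.7 on the arrays labelled Cre. The first principal component of the 6 arrays, with 63.0% of the variance, parted both replicate 1 arrays (scores 26.6 and 34.3) from the other 4 (scores of -21.9 to -7.37). The arrays share replicate numbers across groups, and effects are therefore given for the same-numbered pairs 1, 2 and 3 as well as for the group means. The labels do not say that replicates are separate animals, and every p-value therefore reflects the spread among these arrays alone, which may be technical.

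The sorted cells carried the genes that define cDC1. Batf3, a transcription factor required for cDC1, was at 3020.1, 2554 and 2716 on the control arrays and 2768, 2358 and 2652 on the arrays labelled Cre, and Irf8, its partner factor, ranged from 3385 to 4671. Ccr7, the receptor that guides dendritic cells to the node, ranged from 7339 to 9556. All 26 measured genes of the cDC1 identity list and all 38 of the migratory maturation list were above background, as were 88.5% of all genes. Their median log2 differences (Cre minus control) were -0.02 and -0.05. These are near the median of all genes above background, -0.02. Markers of other cells gave summed intensities that overlapped between the groups: 595 to 743 on the control arrays and 636 to 758 on the arrays labelled Cre over the B cell list, and 3102 to 3386 and 2877 to 3800.1 over the T cell list. All 14 measured T cell markers and 13 of 14 B cell markers were above background on all 6 arrays. All 11 neutrophil markers and all 15 measured stromal and endothelial markers were too, so passing this level does not tell cell types apart. Cd3e, a chain of the T cell receptor complex, was between 161 and 210.4. In sorted populations measured as a whole, fewer cells of a type and less RNA per cell cannot be told apart.

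Cd40 itself did not separate the labelled groups. Control arrays 1, 2 and 3 read 2138, 2777 and 1542, and the arrays labelled Cre read 1427, 1388 and 3358. The highest of the 6 values was thus on an array labelled Cre, that of replicate 3, and the groups overlapped. By pair the log2 difference was -0.58, -1.0 and 1.12, ratios of 0.668, 0.5 and 2.18. The group difference was -0.15 (SE 0.40, n = 3 per group, exact two-sided permutation p = 0.8, limma adjusted p = 1), and 3 arrays against 3 cannot give an exact p below 0.1. In spleen Cd40 had the same order, with pair differences of -0.65, -1.30 and 0.88, so that the replicate 3 arrays ran against their labels in both tissues. Whether the labels of the replicate 3 samples were exchanged was not tested, and an exchange would turn the sign of every pair 3 difference given below. Where the Cd40 probes lie relative to the floxed exons was not determined here, and a probe outside the deleted stretch would not check the label. Every direction below therefore rests on the labels alone.

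Xcr1, which carries the Cre, was at 203, 286 and 263 on the control arrays and 224, 267 and 236 on the arrays labelled Cre. Its groups overlapped, with a log2 difference of -0.04 (SE 0.22, n = 3 per group, exact two-sided permutation p = 0.9).

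**Figure D1:**
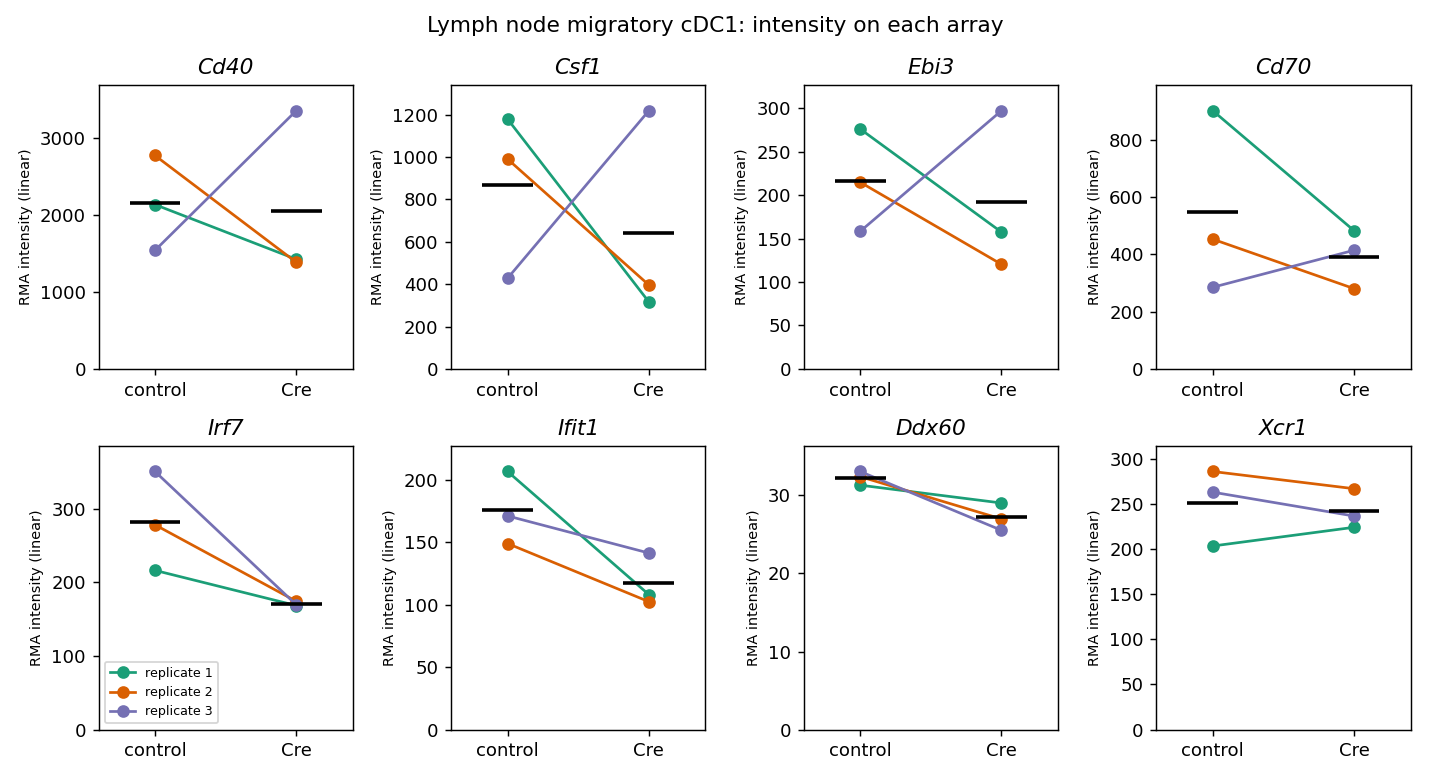
RMA intensity (linear axis from 0) of 8 genes on the 6 lymph node arrays, with control on the left and Cre on the right of each panel. Lines join same-numbered arrays and black bars are the mean of 3 arrays. Cd40, Csf1, Ebi3 and Cd70 are lower on the Cre array in pairs 1 and 2 and higher in pair 3, whereas Irf7, Ifit1 and Ddx60 are lower in all 3 pairs.

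Across all genes, limma called none of 19938 between the labelled groups at an adjusted p under 0.05 (0%), with or without the replicate number as a block. An unadjusted p under 0.05 was found for 402 genes (2.02%), 185 higher (0.928%) and 217 lower (1.09%) on the arrays labelled Cre. With the block it was found for 1360 (6.82%), 518 higher (2.6%) and 842 lower (4.22%). No gene below is therefore said to have risen or fallen, and values are given instead.

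The 3 pairs did not share a common direction over the genes. The pair differences of 17652 genes correlated at r = -0.05 between pairs 1 and 2, -0.01 between pairs 1 and 3 and -0.02 between pairs 2 and 3, as a description over genes, which are not independent replicates. More than 2-fold apart were 34 genes in pair 1 (24 higher and 10 lower on the array labelled Cre), 15 in pair 2 (1 and 14) and 37 in pair 3 (15 and 22). The genes farthest apart differed from pair to pair and were named after their values were seen. In pair 1, Il1r2, the decoy receptor for interleukin 1, was at 61.4 on the control and 216 on the Cre array, while the other 4 arrays lay between 35.8 and 45.3. In pair 3, Dcn, the matrix proteoglycan decorin made by fibroblasts, was at 23.8 and 81.8, with the other 4 arrays between 24.9 and 38.3. Of genes at least 0.5 apart on the log2 scale in every pair, none ran the same way in all 3 (1 did with quantile normalization and 1 with the mean of each gene's probe sets).

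**Figure D2:**
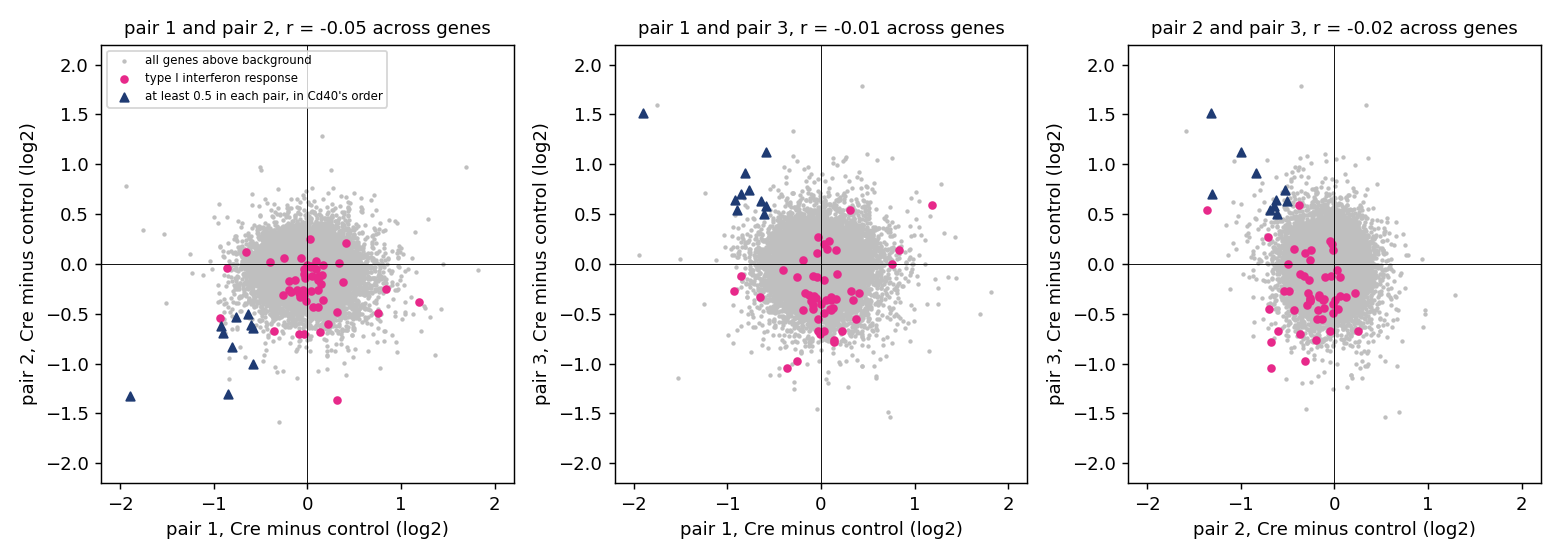
Each panel plots the log2 difference, Cre minus control, of one pair against that of another for 17652 genes above background (grey). Pink points are the 50 members of the type I interferon list and blue triangles the 10 genes at least 0.5 apart in each pair in the order of Cd40. The grey clouds have no slope (r from -0.05 to -0.01), and the triangles all lie below 0 in pairs 1 and 2 and above 0 in pair 3.

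The order seen for Cd40, lower in pairs 1 and 2 and higher in pair 3, was shared by 2649 genes above background (15%). With a log2 difference of at least 0.5 in each pair it was shared by 10 genes, Cd40 among them, and the reverse order by 4. The 10 were Cd40, Csf1, Ebi3, Ptgs2, Cd70, Calm5, Hcls1, Layn, Nphs1 and St6galnac2 (6 remained in number when arrays were centred on their medians, and 6 with 16 added to each intensity). They were picked out after the values were seen and by the order itself, so their agreement in sign is a description and no test.

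Of the 10, Csf1, Ebi3, Ptgs2 and Cd70 are given by array here. Csf1, the macrophage growth factor M-CSF, was at 1178, 989.8 and 428 on the control arrays and 317, 396 and 1218 on the arrays labelled Cre. Its pair differences of -1.90, -1.32 and 1.51 were farther from 0 than those of Cd40 in every pair, and the 2 groups overlapped. The group difference was -0.57 (SE 0.43, n = 3 per group, limma adjusted p = 1). Without the replicate 3 arrays, the pair that ran the other way, it was -1.61, and without the replicate 1 arrays it was 0.094. Since Csf1 was picked out by this order of its pairs, these values are a description with no test.

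Ebi3, the shared subunit of IL-27 and IL-35, was at 276, 215 and 158 on the control arrays and 157, 120.3 and 297 on the arrays labelled Cre. Ptgs2, the inducible cyclooxygenase that starts prostaglandin synthesis, was at 2430.5, 3552 and 1504 against 1346, 1436 and 2454. Cd70, the ligand of CD27 on T cells, was at 901, 453 and 285 against 483, 280.4 and 414. In these 3 genes control array 3 was the lowest of its group and lay below Cre array 3, as for Cd40, and the groups overlapped. Tnfsf9, the ligand of 4-1BB, had the same order with pair differences of -0.26, -1.08 and 1.04, and so had Flt3l, the growth factor of dendritic cells, with -0.82, -0.48 and 0.66.

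The genes in reverse order included Slc27a3, a fatty acid transport protein, at 339, 583 and 1121 on the control arrays and 564, 846 and 386 on the arrays labelled Cre. Npr1, the receptor of atrial natriuretic peptide, was at 197, 296 and 663 against 323, 477 and 237. In both, control array 3 was the highest of the 6 and the groups overlapped. In spleen Cd40 kept its own order, lower in pairs 1 and 2 and higher in pair 3. Of the 9 other genes that shared it in lymph node, 1 did so in spleen (Nphs1, 11.1%, against 14.6% of all genes). The reverse order was held there by 2 of the 9 (Ebi3 and Calm5, 22.2%, against 11.2%). Of the 4 genes in reverse order in lymph node, 1 had the order of Cd40 in spleen (Slc27a3, 25%) and 0 had the reverse order.

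By correlation with Cd40 over the 6 lymph node arrays, among 2800 genes with an SD of at least 0.3 (log2), the nearest were Clstn1 (r = 0.96), Blnk (0.96), Slc6a12 (0.93), Spred2 (0.93) and Ampd3 (0.91). The farthest were Hfe (-0.98), Myo1d (-0.85), Alpk2 (-0.84), Rcbtb2 (-0.81) and Mfsd4a (-0.79). Blnk, an adaptor of B cell receptor signalling, was at 244, 310.2 and 190.4 on the control arrays and 222, 201 and 349 on the arrays labelled Cre. Hfe, the iron-regulating class I-like molecule, was at 65.4, 54.9 and 86.1 against 88.4, 81.0 and 51.9. These are descriptions chosen by the correlation itself from a large number of genes.

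Genes of the receptor complex and of NF-kB leaned lower in some pairs, with none called. Of 14 measured members of the CD40 receptor complex, none was called, and the median log2 difference was -0.13 (pair medians -0.07, -0.01 and -0.24). Those lower in all 3 pairs were 4 of 14: Traf2 and Traf1, adaptors of the receptor, Birc2, which encodes cIAP1, and Map3k7, the kinase TAK1. Birc2 was almost level in pair 1 (-0.0092), and its other probe set was higher in pairs 1 and 2, at 0.04, 0.23 and -0.69 by pair. The share among all genes was 15.7% lower and 9.48% higher in all 3 pairs, and 11.8% and 12% with quantile normalization. Traf2 was at 709.5, 1006 and 1188 on the control arrays and 631, 994 and 672 on the arrays labelled Cre, a log2 difference of -0.34 (SE 0.21, n = 3 per group), with the largest gap in pair 3 and overlapping groups. Map3k14, which encodes NIK, was at 0.18, 0.32 and -0.54 by pair.

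Of 19 listed NF-kB subunits and inhibitors 17 were measured, and Nfkb1 and Chuk were not among the genes tested. The median of the 17 was -0.14 (pair medians -0.16, 0.01 and -0.21). In all 3 pairs 5 were lower (29.4%, against 15.7% of all genes). The 5 were Nfkb2, the precursor of the p52 subunit, the deubiquitinases Cyld and Tnfaip3 (A20), the kinase Tbk1 and the atypical inhibitor Nfkbiz. Nfkb2 was at 2178, 2987 and 3009 on the control arrays and 1474, 2611 and 2428 on the arrays labelled Cre, and Cyld at 553, 877 and 754 against 496, 653 and 529. In both genes the replicate 1 arrays were the lowest of their groups, so that the groups overlapped although each pair was lower (log2 difference of Nfkb2 -0.36, SE 0.24, and of Cyld -0.36, SE 0.20, n = 3 per group).

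Genes known to be induced through CD40 were described from a list of 31, all above background. None was called by limma, and the median was -0.10 (pair medians -0.14, -0.19 and 0.04). Cd40's own order was held by 11 of 31 (35.5%, against 15% of all genes), among them Cd70, Tnfsf9, Ebi3, Il23a, Il15, Cd86, Ccl17, Cxcl9 and Bcl2l1. In the oxidative phosphorylation list, which has no tie to CD40, 10 of 25 (40%) held it. Lower in all 3 pairs were 9 of the 31 CD40-induced genes (29%, against 15.7% of all genes), and none was higher in all 3 (9.48% of all genes). The 9 included Icam1, the adhesion ligand of LFA-1, at 2468, 4195 and 4265 on the control arrays and 1875, 3671 and 2945 on the arrays labelled Cre, a log2 difference of -0.37 (SE 0.27, n = 3 per group) with overlapping groups.

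The 5 IL-12 family subunits, which the CD40-induced list also holds in part, had the lowest median of all lists, -0.27, with -0.58 in pair 1, -0.29 in pair 2 and -0.01 in pair 3. Il27, the p28 subunit that pairs with EBI3, was at 388, 358 and 310.4 on the control arrays and 267, 276 and 308 on the arrays labelled Cre. It was the 1 of 31 CD40-induced genes that was lower without overlap (2.89% of all genes were), although its pair 3 was nearly level, and its log2 difference was -0.31 (SE 0.18, n = 3 per group, limma adjusted p = 1). Il12a, the p35 subunit, was at 42.3, 43.2 and 33.9 against 28.3, 36.1 and 32.2, and its groups overlapped. Il12b, the p40 subunit, ranged from 5518 to 8776 on the control arrays and from 5100.5 to 8218 on the arrays labelled Cre.

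The costimulatory ligands Cd80, Cd86 and Cd83 had log2 differences of 0.04 (SE 0.14), 0.02 (SE 0.15) and 0.00 (SE 0.18). Cd274, which encodes PD-L1, was at -0.13 (SE 0.19) and was lower in all 3 pairs. Of 19 costimulatory and coinhibitory genes above background, 7 were in the order of Cd40 (36.8%, against 15% of all genes). In all 3 pairs 2 were lower (10.5%, against 15.7%) and 1, Tnfsf14, was higher (9.48% of all genes).

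**Figure D3:**
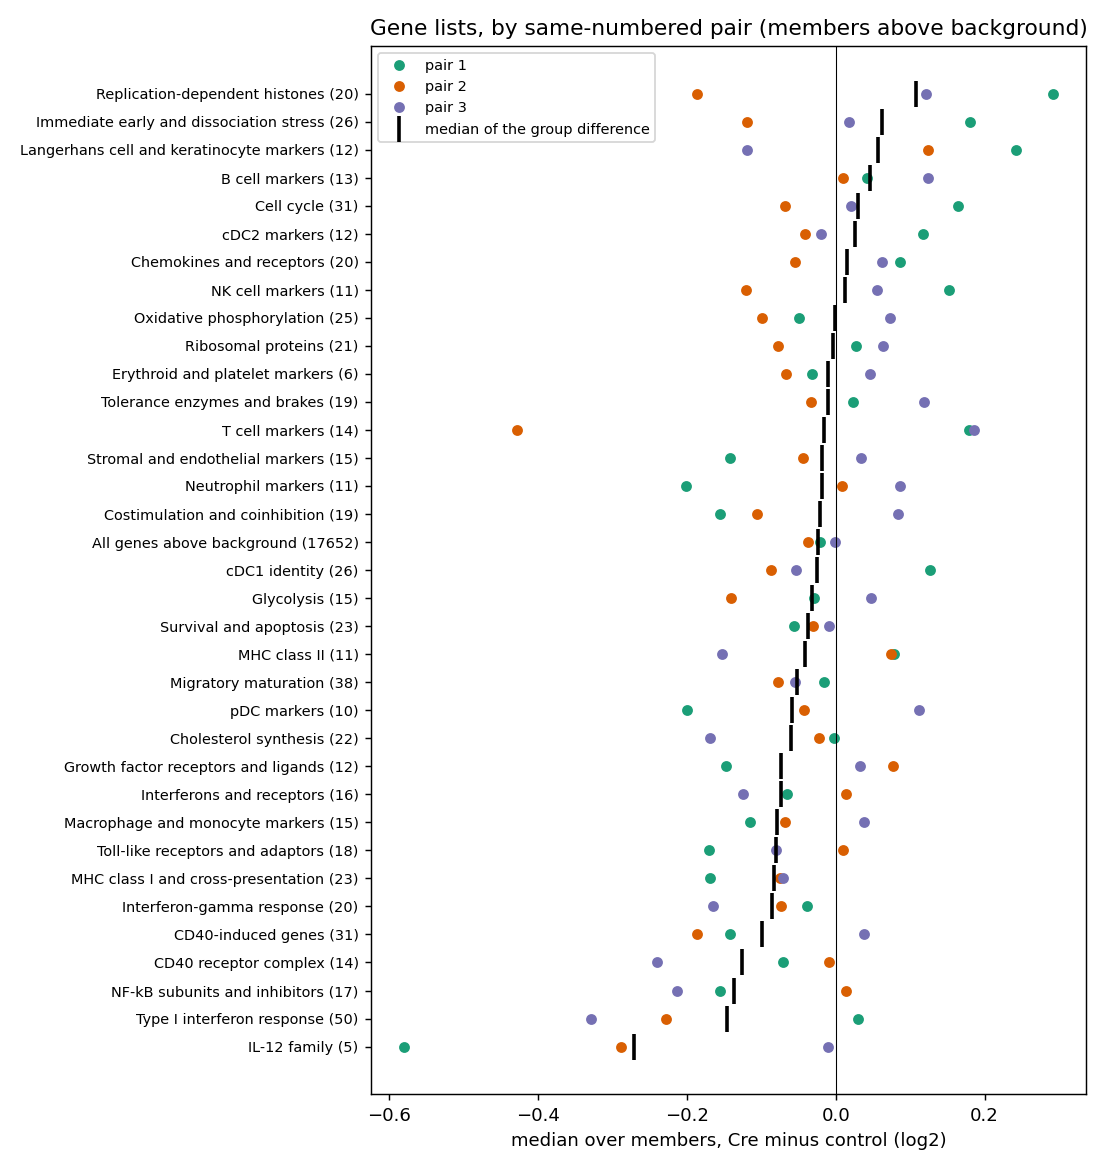
Median log2 difference, Cre minus control, of each gene list over its members above background (number in brackets). Coloured points are the medians of pairs 1, 2 and 3 and black ticks the median of the group difference. The pair medians spread on both sides of 0 in most lists, with -0.58, -0.29 and -0.01 for the IL-12 family and 0.03, -0.23 and -0.33 for the type I interferon response.

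The type I interferon response, the largest list, had the most members lower without overlap by number. By share the IL-12 family (1 of 5, 20%) and the B cell markers (2 of 13, 15.4%) were above it. Of 63 listed names 53 were measured and 50 were above background on all 6 arrays. The median log2 difference was -0.15, with pair medians of 0.03, -0.23 and -0.33. In all 3 pairs 17 of 50 were lower (34%, against 15.7% of all genes) and none was higher (9.48% of all genes). Without overlap 7 were lower (14%, against 2.89% of all genes) and none was higher (1.73% of all genes). Limma called none of them, and 7 of 50 had an unadjusted p under 0.05, each of them lower. Of all 19938 genes 1.09% were lower and 0.928% higher at that level. Members of such a list can vary together, so these are not 7 separate results. With arrays centred on their medians 4 were lower without overlap (against 2.75% of all genes under that scaling).

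With any one pair left out, these counts and the shares of all genes could only stay or rise, since fewer arrays had to agree. Their rise is therefore no test, and the counts are given beside the shares of all genes. Without the replicate 1 arrays, 32 of 50 members were lower in both remaining pairs (64%, against 29.9% of all genes) and 30 did not overlap (60%, against 21.8%). Without replicate 2 the counts were 21 (42%, against 27.1%) and 10 (20%, against 9.54%), and without replicate 3 they were 20 (40%, against 30.7%) and 9 (18%, against 12.7%). The level of the list was also taken by array. As the median deviation of its members from their mean over the 6 arrays, it was -0.16, 0.14 and 0.29 on control arrays 1, 2 and 3, and -0.16, -0.05 and -0.03 on the arrays labelled Cre. Control arrays 2 and 3 were the high ones, and control array 1 was as low as Cre array 1. Of 12 listed markers of plasmacytoid dendritic cells, which are known as producers of type I interferon, 10 were measured, and all 10 were above background. Their summed intensity was 3880 to 4649 on the control arrays and 3519 to 4388 on the arrays labelled Cre, with pair medians of -0.20, -0.04 and 0.11. By group mean 6 of the 10 were lower and 4 higher on the arrays labelled Cre. Siglech, which defines these cells, was at 91.3, 67.3 and 67.3 on the control arrays and 63.2, 73.1 and 73.8 on the arrays labelled Cre. Il3ra, also on this list and given below, was the 1 of 10 lower without overlap (10%, against 2.89% of all genes). Pair medians of the T cell marker list were 0.18, -0.43 and 0.19. The part of either cell type in the interferon values was not tested.

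Irf7, the transcription factor that amplifies type I interferon, had the largest difference on the lower side among genes without overlap. It was at 216, 278 and 350.2 on the control arrays and 168, 174 and 169.6 on the arrays labelled Cre. All 3 Cre arrays were close to each other and below every control array, while the control arrays were spread, with control array 1 the nearest to the Cre arrays. The log2 difference was -0.69 (SE 0.17, n = 3 per group, limma adjusted p = 1, and 0.465 with the replicate block), lower in 3 of 3 pairs. In spleen it was 0.12, and the difference of the effect between tissues had an unadjusted limma p of 0.00452 (adjusted p = 1). Irf7 was picked by the same lymph node values, so this unadjusted p is a description and no test.

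Ifit1, an antiviral protein that binds viral RNA ends and whose promoter is printed above, was at 207, 149 and 171 on the control arrays and 108, 102 and 141 on the arrays labelled Cre. Its groups did not overlap, with a log2 difference of -0.58 (SE 0.16, n = 3 per group, limma adjusted p = 1), which was -0.29 with array weights. Unlike Irf7, its largest gap was in pair 1. Ddx60, a helicase that supports RNA sensing, was dim, at 31.3, 32.4 and 33.0 against 29.0, 27.0 and 25.5, and did not overlap (log2 difference -0.25, SE 0.08). Ifi213, of the interferon-inducible p200 family, was at 31.4, 39.0 and 38.2 against 31.2, 30.2 and 23.4, with control array 1 hardly above Cre array 1.

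Ifit3, Isg20 and Phf11d completed the 7 without overlap, with log2 differences of -0.18 (SE 0.10), -0.28 (SE 0.20) and -0.27 (SE 0.21). Ddx58, the RNA sensor RIG-I, was lower in all 3 pairs but overlapped, at 151, 244 and 287 on the control arrays and 126, 196 and 146 on the arrays labelled Cre (log2 difference -0.52, SE 0.21). Other members did not share the direction. Ifi205, another p200 gene, was at 287, 479 and 295 against 652, 367 and 444, higher in pairs 1 and 3. Ifitm3, which blocks viral entry, was at 0.31, -1.36 and 0.54 by pair, so its low value came from Cre array 2 alone.

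**Figure D4:**
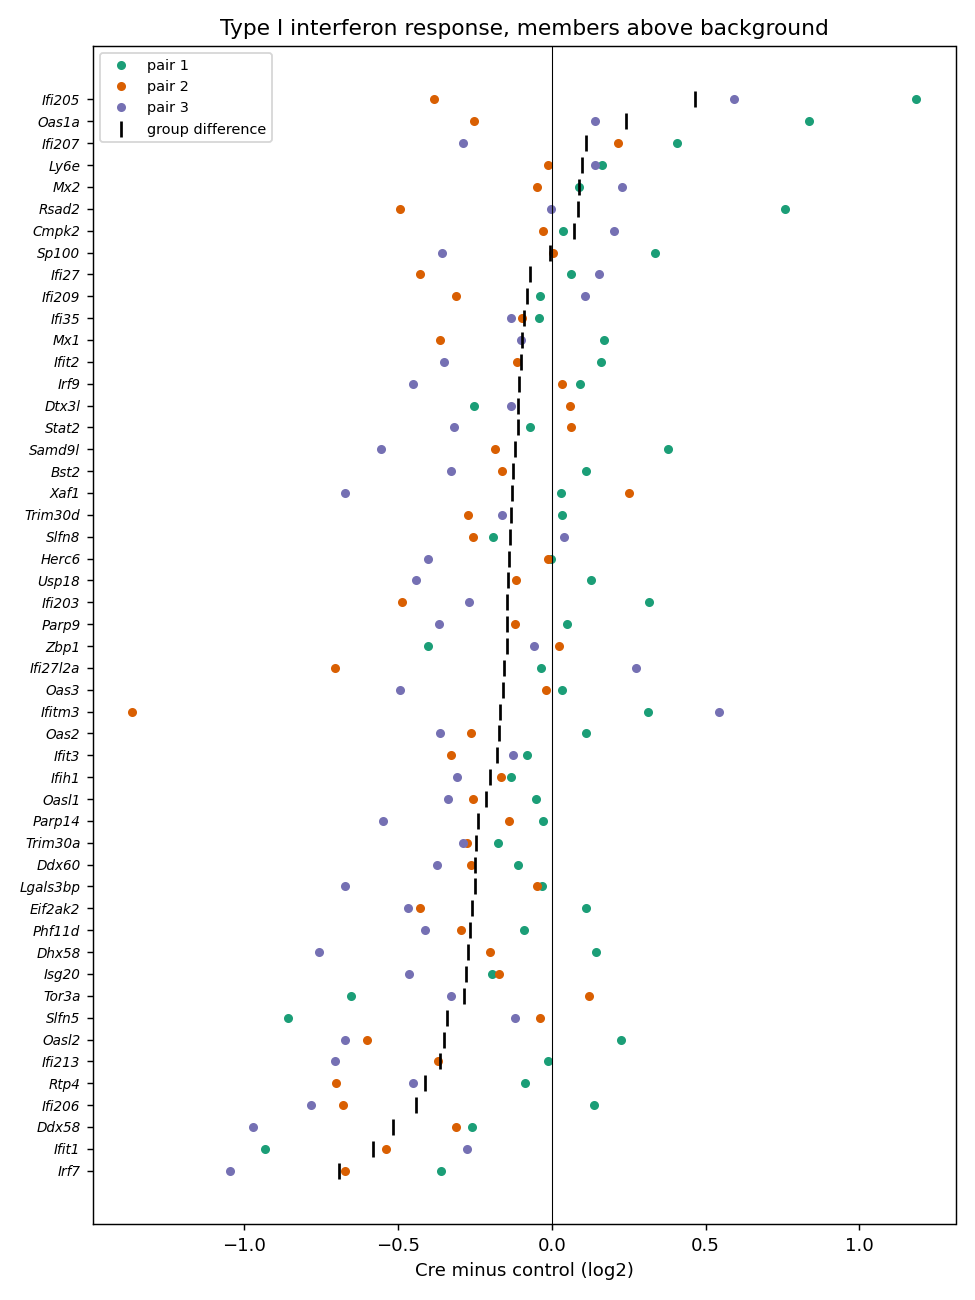
Log2 difference, Cre minus control, of the 50 type I interferon response genes above background, ordered by the group difference (black tick). Coloured points are pairs 1, 2 and 3. Pair 1 (green) lies below 0 for 24 genes, pair 2 for 42 and pair 3 for 40, and Irf7 and Ifit1 at the bottom are below 0 in every pair.

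Of 16 interferon and interferon receptor genes above background, 4 were lower and 2 higher in all 3 pairs (15.7% and 9.48% of all genes). The median was -0.07. Ifnlr1, the receptor chain for type III interferon, was at 87.0, 83.9 and 84.9 on the control arrays and 66.0, 77.9 and 71.6 on the arrays labelled Cre, without overlap (log2 difference -0.25, SE 0.09). Ifnb1 was dim, between 32.4 and 41.1 on all 6 arrays, with a difference of -0.00 (SE 0.12). Stat2 and Irf9, which carry the type I interferon signal, were at -0.11 (SE 0.24) and -0.11 (SE 0.17) and overlapped. Among 20 genes of the interferon-gamma response 6 were lower in all 3 pairs (30%, against 15.7% of all genes). None was higher in all 3 (9.48% of all genes), and their median was -0.09. Socs1, the inhibitor of JAK kinases, had the largest difference of them, -0.35 (SE 0.16).

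Antigen presentation genes are described by class, with no test between the classes. Of 28 listed class I and cross-presentation genes 23 were measured. H2-K1, H2-D1, H2-T23, H2-Q7 and Lnpep were not among the genes tested, so the classical class I heavy chains H2-K1 and H2-D1 are not covered. Of the 23, 11 were lower in all 3 pairs (47.8%, against 15.7% of all genes). B2m was the 1 higher in all 3 (9.48% of all genes), and the list median was -0.08. Tapbp, the tapasin chaperone, was at 2228, 4146 and 4313 on the control arrays and 1718, 3836 and 3422 on the arrays labelled Cre. Rab43, a GTPase used in cross-presentation, was at 505, 866 and 845 against 488, 737 and 533. In both genes the groups overlapped because both replicate 1 arrays were low. B2m was at 11976, 12150.0 and 11609 against 12228, 12545 and 12938, a log2 difference of 0.08 (SE 0.09, n = 3 per group) without overlap. Of 11 class II genes none was lower and 2 were higher in all 3 pairs (15.7% and 9.48% of all genes). Of the 2, 1 did not overlap (1.73% of all genes were higher without overlap), and the list median was -0.04.

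Of 26 cDC1 identity genes 15 were lower and 11 higher by group mean, with pair medians of 0.13, -0.09 and -0.05. In all 3 pairs 5 were lower (19.2%, against 15.7% of all genes) and 1 was higher (9.48% of all genes). Among them Ly75, the endocytic receptor DEC-205, was lower by nearly the same step in each pair, -0.28, -0.33 and -0.34. Its values of 1422, 2445 and 2382 on the control arrays and 1173, 1947 and 1881 on the arrays labelled Cre still overlapped. Zbtb46, a transcription factor of classical dendritic cells, was at -0.16, -0.19 and -0.36 by pair. Clec9a, the receptor for dead cells, was at -0.00 (SE 0.23).

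Among genes without overlap whose 3 pairs ran the same way, Dcstamp had the largest difference on the higher side. It encodes a membrane protein of dendritic cells and of fusing osteoclasts, and was at 69.3, 69.0 and 46.7 on the control arrays and 169, 94.5 and 81.7 on the arrays labelled Cre. Every Cre array was above every control array, and the log2 difference was 0.85 (SE 0.26, n = 3 per group, limma adjusted p = 1). It was 0.53 without Cre array 1 and 0.45 with array weights. On the spleen arrays Dcstamp was far brighter, from 1132 to 2120, so its lymph node values were low beside those of splenic cDC1. In spleen the difference was -0.44, and the difference of the effects had an unadjusted limma p of 0.00424 (adjusted p = 1). Dcstamp too was picked by the lymph node values that enter this p, which is therefore no test.

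P2ry14, a receptor for UDP-glucose, was next, at 85.7, 92.2 and 78.9 against 168, 96.4 and 125, a log2 difference of 0.57 (SE 0.18), which was 0.36 without Cre array 1. Pair 2 was almost level in this gene, at 0.06, as it was in Pinx1, a telomerase inhibitor, at 0.10. Srm, the spermidine synthase, and Klf10, a transcription factor induced by TGF-beta, were more even over the pairs, with 0.50, 0.29 and 0.54 for Srm and 0.44, 0.28 and 0.57 for Klf10. H2ac8, a replication-dependent histone gene, was dim at 29.6, 34.1 and 29.5 against 41.7, 42.1 and 45.5, and had the smallest p of the higher genes with the replicate block (limma adjusted p = 0.465). On the spleen arrays P2ry14 read 2294 to 2687, Pinx1 474 to 598, Srm 527 to 608 and Klf10 184 to 340, while H2ac8 read 19.8 to 26.2. Of 20 measured replication-dependent histones 2 were higher in all 3 pairs (9.48% of all genes were), with pair medians of 0.29, -0.19 and 0.12.

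On the lower side Irf7 was followed by Tbc1d25, a Rab GTPase-activating protein of autophagy, at 81.1, 101 and 112 on the control arrays and 43.6, 76.3 and 70.2 on the arrays labelled Cre. Its log2 difference was -0.65 (SE 0.26, n = 3 per group, limma adjusted p = 1, and 0.465 with the replicate block, where it had the smallest p of the lower genes), and without Cre array 1 it was -0.41. Nicn1, a subunit of the tubulin polyglutamylase complex, was at 182, 185 and 177 against 118, 146 and 116, without overlap and with a log2 difference of -0.53 (SE 0.12). Insm1, a zinc-finger factor of neuroendocrine cells, was at 459, 520.5 and 449 against 330.3, 265 and 419.

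The others of the 10 were Ifit1, Gm10778, Snx33, Dnajc13, Smyd5 and Atp1b1, with differences of -0.58 to -0.43. With the replicate block Arsi, Pjvk and Mfsd9 on the lower side, and Acr, Adgre5, 1700024G13Rik and Olfr508 on the higher side, were also among the 5 smallest p in their direction. Adgre5, which encodes the adhesion receptor CD97, was at 548, 643 and 715 against 782, 852 and 856, and at 4870 to 7054 on the spleen arrays. Olfr508 was close to background, between 20.3 and 31.8.

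**Figure D5:**
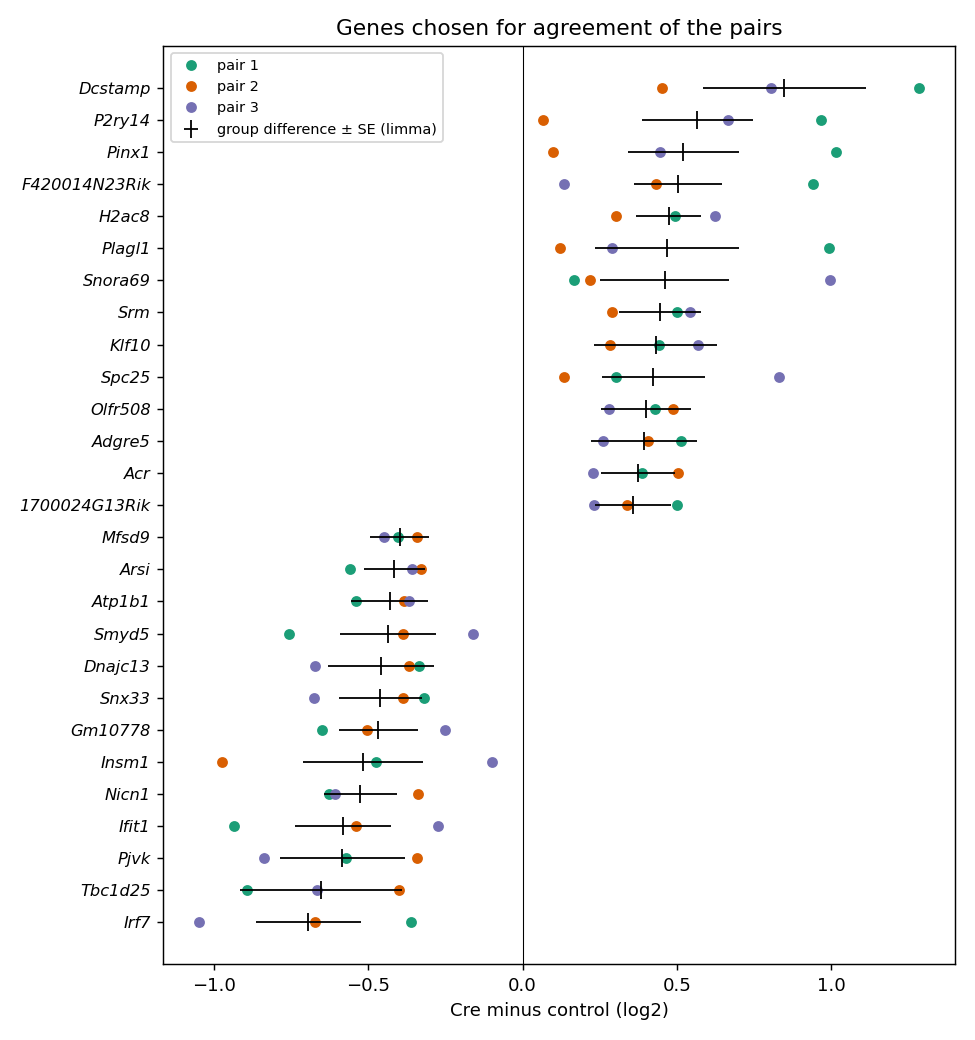
Log2 difference, Cre minus control, of the 20 genes with the largest mean difference among those without overlap and with pairs of the same sign, and of those with the smallest p in the fit with a replicate block. Coloured points are pairs 1, 2 and 3, and black crosses the group difference with its limma SE (n = 3 per group). Dcstamp is at 0.85 and Irf7 at -0.69.

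Of 17652 genes above background, 510 were lower without overlap (2.89%) and 306 were higher (1.73%). The genes named next are examples from these and were not singled out by a test. Il3ra, the interleukin 3 receptor chain, was at 619, 597 and 619 on the control arrays and 409, 504 and 537 on the arrays labelled Cre (log2 difference -0.35, SE 0.15). Bcl2l2, an anti-apoptotic BCL-2 protein, was at -0.28, -0.27 and -0.33 by pair, and Ripk3, the kinase of necroptosis, was at 0.24, 0.26 and 0.26 by pair. Limma called neither of these 2 genes (adjusted p = 1 for both), in a fit that does not use the pairs. With the replicate block, which does use them, limma called no gene.

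Between tissues, limma called no gene for a difference of the Cre effect between lymph node and spleen at an adjusted p under 0.05 (0%), and 326 genes (1.64%) had an unadjusted p under 0.05, 172 with a higher effect in lymph node (0.863%) and 154 with a lower one (0.772%). With the replicate block none was called and 1145 genes (5.74%) had an unadjusted p under 0.05, 498 higher (2.5%) and 647 lower (3.25%). The spleen pair differences correlated with each other at r = 0.18 for pairs 1 and 2, 0.01 for pairs 1 and 3 and 0.14 for pairs 2 and 3 across genes. Between tissues the values ran from -0.19 to 0.11.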

How the data were processed

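RNA of sorted cDC1 was hybridised to Affymetrix mouse gene arrays. The deposited values are intensities on a linear scale. The submitters' processing notes name RMA and the Affymetrix Expression Console as the authors' tools, and their versions are not given in the sources used here. They ran from 8.23 to 20398, and log2 was taken here before any test. Of 28853 probe sets, 21789 had 1 gene symbol, 1621 had several and were left out, and 5443 were not listed. RefSeq names were matched by Entrez number for 21698. Where a gene had several probe sets (999 genes) the one with the highest mean was kept.

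Groups and replicate numbers came from the titles. Limma 3.58.1 (R 4.3.3, with data.table at version 1.17.8) fitted 4 group means to the 12 arrays, with a trend in eBayes and two-sided tests. P-values were adjusted by Benjamini-Hochberg over 19938 genes and called at 0.05. The spleen arrays share in the estimate of spread. Cd40 and Xcr1 were also given exact permutation tests (scipy 1.17.1, numpy 2.4.6, pandas 2.3.3, Python 3.11.15), and plots were drawn with matplotlib 3.10.9. The number of arrays limits the precision.

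Control and Cre arrays of the same number deviated together from their group means in lymph node, with correlations across genes of 0.654, 0.397 and 0.293 for numbers 1, 2 and 3. The lowest of any same-numbered pair of the series was 0.293. Control and Cre arrays of different numbers in lymph node correlated at -0.574 to 0.491, so that some exceeded same-numbered ones. Since each same-numbered value was over 0.1 the numbers were treated as pairing, from the data and not from a label, and the replicate block was fitted as an alternative. Deviations from a group mean cancel out within the group, so the replicate 1 arrays, which stood apart, also shape the values for numbers 2 and 3. Passing 0.1 therefore does not establish that arrays numbered 2 or 3 belong together.

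Genes were named by rule: Cd40 and Xcr1, called genes, the 10 largest differences in each direction among genes without overlap and with pairs of one sign, the 5 smallest p in each direction with the block, up to 6 members of a described list, and the 5 genes most and least correlated with Cd40. Other names were chosen after their values were seen. The members, the 35 gene lists and the rule were chosen with earlier results of these data known. Alternatives were other normalizations, offsets, filters, probe-set rules, variance settings, array weights and leaving out each array or pair.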

Additional observations from a re-analysis of the deposited data

How the results depend on the processing

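With array weights limma called 2 genes between the groups, 1 higher (Olfr618, near background) and 1 lower (Ifi206), and 3 genes for the difference of the effect between tissues. The weights were 6.39 for control array 2 and 0.239 to 0.398 for the replicate 1 arrays. With the replicate block and no replicate 3 arrays limma called 1 gene, Csf1, which pair 3 ran against. With the replicate block and all arrays it called 0, the smallest adjusted p being 0.465, and no call changed. With arrays centred on their medians 4 interferon genes were lower without overlap, against 2.75% of all genes. Quantile normalization put Xcr1 at 0.030 and Npr1 at 0.057, and array weights put Ebi3 at 0.012. Causes were not tested.

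Leaving out each array or each pair in turn, the log2 difference spanned -0.79 to 0.27 for Cd40 and -0.18 to 0.064 for Xcr1. For genes in the order of Cd40 it spanned -1.61 to 0.094 for Csf1, -0.82 to 0.049 for Ebi3, -0.77 to 0.0090 for Layn, -0.61 to 0.046 for Calm5, -0.80 to 0.091 for Cd70, -0.65 to 0.11 for Nphs1, -0.57 to 0.065 for Hcls1, -0.67 to 0.39 for Tnfsf9 and -0.65 to 0.091 for Flt3l. For genes in the reverse order it spanned -0.42 to 0.70 for Npr1, -0.23 to 0.62 for Pstpip2 and -0.51 to 0.64 for Slc27a3. It spanned -0.49 to 0.023 for Tnfaip3, -0.42 to 0.078 for Tbk1 and -0.58 to 0.085 for Tapbp. With the replicate block and a pair left out, the signs turned at 0.061 to 0.27 for Cd40, 0.020 for Xcr1, 0.036 to 0.049 for Ebi3 and -0.23 to -0.18 for Pstpip2, and for the others at the ends of the spans above. Interferon genes lower in every remaining pair numbered 20 to 32 of 50 without a pair, and those without overlap 9 to 30. These counts could not fall when a pair was left out.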
